A study of Mus musculus with 5 samples.

Results

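The Dlk1-Meg3 cluster is an imprinted domain of mouse chromosome 12, and its 6 genes chosen here are Dlk1, Meg3, Rian, Mirg, Rtl1 and Dio3. Members were all probe sets that the platform annotation gives exactly 1 of these symbols. This gave 19 of the 45037 probe sets that are not array controls: 11 for Meg3, 4 for Rian, 2 for Mirg, 2 for Dlk1, and 0 for Rtl1 and Dio3, which were therefore not measured. The measured members are thus 4 of the 6 genes, among 18193 genes with such a probe set. No probe set with several symbols named a member. RNA of mouse embryonic stem cells had been hybridised to 5 Affymetrix arrays, 1 for each of 5 groups. J1 cells, kept on embryonic fibroblast feeders, had received a control siRNA or an siRNA against Tet1, the dioxygenase that oxidises 5-methylcytosine, and were collected 4 days later. E14 cells, kept without feeders, had been infected with lentivirus carrying a scrambled hairpin, Tet1 shRNA3387 or Tet1 shRNA2863, and were collected after 4 days of puromycin selection. J1 and E14 are established mouse lines. Line, feeders and the means of depletion differ together between J1 and E14, so these cannot be told apart, and the combination is called the system. In this bulk RNA, fewer cells expressing a gene and less RNA per cell cannot be told apart.

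Within the domain, the long noncoding RNAs Meg3, Rian and Mirg are transcribed from the maternal chromosome, while Dlk1, Rtl1 and Dio3 are expressed from the paternal one. A control region between Dlk1 and Meg3 carries DNA methylation on the paternal copy, and the unmethylated maternal copy keeps the noncoding RNAs active and the protein-coding genes silent. Loss of the maternal RNAs through methylation is known to occur in cultured pluripotent mouse cells. In the gene table of assembly GRCm38.p6, Rian holds 11 small nucleolar RNA genes and 3 miRNA hairpins and Mirg holds 10 miRNA hairpins, out of 58 hairpins between the outermost members. Neither class of small RNA was measured by the probe sets described here.

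The promoter windows of the 4 measured genes are shown because the substrate of Tet1 is methylated cytosine in CG dinucleotides, which are in capitals. Sequences are RefSeq windows of GRCm38.p6, plus strand, from 250 bases before to 50 bases after a listed start: chr12:109452573-109452872 for Dlk1, chr12:109540746-109541045 for Meg3, chr12:109603695-109603994 for Rian and chr12:109734731-109735030 for Mirg.
Dlk1: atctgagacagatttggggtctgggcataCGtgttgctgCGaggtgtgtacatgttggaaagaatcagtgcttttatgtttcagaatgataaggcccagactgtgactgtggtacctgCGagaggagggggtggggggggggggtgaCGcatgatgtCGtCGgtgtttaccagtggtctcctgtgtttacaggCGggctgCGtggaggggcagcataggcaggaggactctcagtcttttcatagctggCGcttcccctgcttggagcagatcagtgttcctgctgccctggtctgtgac
Meg3: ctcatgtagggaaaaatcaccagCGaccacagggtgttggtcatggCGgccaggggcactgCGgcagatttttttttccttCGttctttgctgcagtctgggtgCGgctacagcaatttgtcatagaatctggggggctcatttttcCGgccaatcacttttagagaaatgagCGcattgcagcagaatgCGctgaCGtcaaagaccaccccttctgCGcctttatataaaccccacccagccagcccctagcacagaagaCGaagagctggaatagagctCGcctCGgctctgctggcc
Rian: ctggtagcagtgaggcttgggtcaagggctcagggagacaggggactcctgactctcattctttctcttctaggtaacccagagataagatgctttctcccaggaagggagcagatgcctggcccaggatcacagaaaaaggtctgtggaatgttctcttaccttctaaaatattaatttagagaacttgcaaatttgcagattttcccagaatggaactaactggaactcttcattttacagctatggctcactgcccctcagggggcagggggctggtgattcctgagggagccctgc
Mirg: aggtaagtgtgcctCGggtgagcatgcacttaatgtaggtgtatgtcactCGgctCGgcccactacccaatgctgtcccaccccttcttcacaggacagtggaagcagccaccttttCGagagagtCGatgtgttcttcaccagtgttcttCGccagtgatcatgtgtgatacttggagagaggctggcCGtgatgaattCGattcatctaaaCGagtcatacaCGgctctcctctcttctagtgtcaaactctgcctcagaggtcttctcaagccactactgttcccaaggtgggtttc
These windows hold 9 CG dinucleotides for Dlk1, 13 for Meg3, 10 for Mirg and 0 for Rian, where the median of 32851 promoter windows is 7. At least as many as Meg3 are held by 37.9% of all windows. A further Meg3 start in the table has 1 CG. The 6-letter element TGCCGC, which the imprint-keeping zinc finger protein ZFP57 recognises when methylated, was searched on both strands. It occurred once in the Meg3 window, once or more in 11.6% of all windows, and not in the other windows printed here. A match to these letters is a description of the window and not a binding site, and methylation was not measured on these arrays.

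The values are probe set summaries on an inferred log2 scale, with array medians of 3.45 to 3.52. A probe set was kept for tests where it exceeded the 40th percentile of its array, at 3.03 to 3.12, on at least 1 array; 29001 of 45037 passed, and so did 18 of the 19 members. Tet1 was lower on each array labelled as depleted: its brightest probe set, 1455425_at, had 17.2% of the control signal with siRNA, 30.6% with shRNA3387 and 54.0% with shRNA2863. All 10 embryonic stem cell markers examined, such as Pou5f1 and Nanog, were kept, and their median level was 10.63 to 11.07 on the 5 arrays. Their median difference from control was -0.44 with Tet1 siRNA in J1, where Esrrb (-1.21), Nanog (-0.88) and Fgf4 (-0.78) were at least 1.5-fold lower, and -0.05 with each hairpin; the J1 values of the cluster stand beside this shift, and its part in them was not tested. Each group is 1 array, so a difference between 2 arrays has no replicate check. Differences below are on the log2 scale, depleted minus the control array of the same system, and both hairpins share 1 scramble array.

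**Figure D1:**
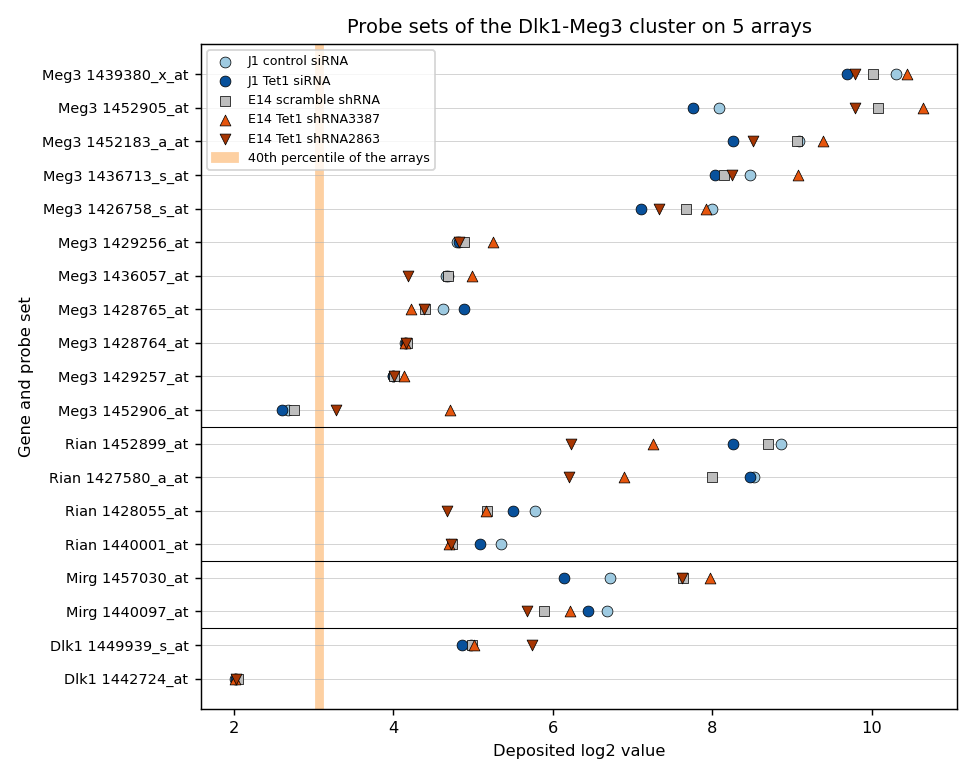
Deposited log2 values (x axis) of the 19 probe sets of Meg3, Rian, Mirg and Dlk1 (y axis) on the 5 arrays (points), with the band of the arrays' 40th percentiles. Meg3 1452905_at lies higher on the 3 E14 arrays than on both J1 arrays, and Rian 1452899_at and 1427580_a_at are lowest with shRNA2863 at 6.23 and 6.20.

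Meg3, the noncoding RNA that starts the maternal transcription of the domain, was clearly detected by 5 of its 11 probe sets, which exceeded 6 on all 5 arrays. Probe set 1439380_x_at read 10.30 in J1 control cells and 9.69 after Tet1 siRNA; in E14 it read 10.01 on the scramble array, 10.44 under shRNA3387 and 9.79 under shRNA2863. The Tet1 siRNA array was the lowest and the shRNA3387 array the highest of the 5. The suffix x marks probes that can match other transcripts, but the 1452183_a_at probe set, read at 9.08 and 8.26 in J1 and at 9.06, 9.39 and 8.51 in E14 in the same order, gave the same ranking at both ends. Probe set 1426758_s_at read 7.99, 7.11, 7.67, 7.92 and 7.33, and 1436713_s_at read 8.47, 8.03, 8.15, 9.07 and 8.25. On 1426758_s_at the J1 control array was the highest, not the shRNA3387 array. With Tet1 siRNA in J1, all 5 bright Meg3 probe sets were lower than control, by differences of -0.88 to -0.32 with a median of -0.61. Of the 10132 probe sets above 6 on every array, 57.9% were lower in J1 and their median was -0.06. With shRNA3387 all 5 were higher than scramble, by 0.25 to 0.92 with a median of 0.43, where 56.3% of the 10132 probe sets above 6 on every array were higher and their median was 0.04. With shRNA2863 4 were lower and 1 higher, from -0.55 to 0.10, where 42.2% of those 10132 were lower. These directions were the same after quantile normalization and median centring.

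Among the dimmer Meg3 probe sets, 1 differed by more than 2-fold. Probe set 1452906_at read 2.68 and 2.61 in J1 cells, 2.75 on the scramble array, 4.71 under shRNA3387 and 3.28 under shRNA2863. It passed the 40th percentile on the 2 Tet1 hairpin arrays only, so it was kept through those arrays, and its difference of 1.96 with shRNA3387 starts from a signal near background. Probe sets 1428764_at and 1429257_at stayed within 0.02 and 0.14 over all 5 arrays. The remaining dim ones, 1429256_at, 1436057_at and 1428765_at, read between 4.18 and 5.25, with differences of 0.02 to 0.26 in J1, -0.18 to 0.36 with shRNA3387 and -0.51 to -0.01 with shRNA2863.

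Rian, the maternal noncoding RNA that hosts small nucleolar RNAs, had the most negative differences of the cluster with both hairpins, though not with siRNA in J1, where 3 Meg3 probe sets were lower. Probe set 1452899_at read 8.86 in J1 control cells and 8.26 after Tet1 siRNA; in E14 it read 8.69 on the scramble array, 7.26 under shRNA3387 and 6.23 under shRNA2863. Relative to the control of its system this left 66.0% with siRNA, 37.1% with shRNA3387 and 18.2% with shRNA2863. Probe set 1427580_a_at read 8.52, 8.47, 8.0, 6.89 and 6.20 in the same order, which left 96.6%, 46.3% and 28.7%. On both probe sets the 2 arrays with Tet1 hairpins lay below the other 3, and the J1 pair differed less than either E14 pair. Of the 29001 kept probe sets, 40 had a difference at or below that of 1452899_at with shRNA3387 and 5 with shRNA2863, counting the probe set itself. For 1427580_a_at these numbers were 123 and 11.

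The other Rian probe sets did not show this. Probe set 1428055_at read 5.77, 5.50, 5.17, 5.16 and 4.67 and 1440001_at read 5.35, 5.08, 4.74, 4.70 and 4.72, with differences of -0.27 each in J1, -0.01 and -0.04 with shRNA3387, and -0.50 and -0.02 with shRNA2863. Both lay above the 60th percentile on all arrays, so they were above the range treated as background. After median centring the shRNA3387 differences of both, and the shRNA2863 difference of 1440001_at, had the opposite sign, at 0.01 to 0.05. Which part of the transcript each probe set covers was not analysed here.

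Mirg, the distal maternal RNA that carries many miRNAs, differed in the same direction as the bright Meg3 probe sets with siRNA and with shRNA3387. Probe set 1457030_at read 6.72 in J1 control cells, 6.14 after Tet1 siRNA, 7.63 on the scramble array, 7.97 under shRNA3387 and 7.62 under shRNA2863. Probe set 1440097_at read 6.68, 6.44, 5.89, 6.22 and 5.67. Both were lower with Tet1 siRNA, by differences of -0.58 and -0.24, and higher with shRNA3387, by 0.34 and 0.33. With shRNA2863 the differences were -0.01 and -0.22, and the former turned to 0.02 after median centring.

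Dlk1, a transmembrane protein with EGF-like repeats related to Notch ligands, was the only paternally expressed member measured. Its probe set 1449939_s_at read 4.97 in J1 control cells, 4.86 after Tet1 siRNA, 4.99 on the scramble array, 5.01 under shRNA3387 and 5.74 under shRNA2863. The shRNA3387 difference of 0.02 turned to -0.10 after quantile normalization. The shRNA2863 array stood apart from the other 4, at 1.68-fold the scramble signal. The other Dlk1 probe set, 1442724_at, read 2.02 to 2.05, under the filter on all arrays, and shows no difference that could be read. The antisense RNA of the unmeasured Dio3, Dio3os, read 2.82 to 2.86 on the 5 arrays and was likewise not kept.

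**Figure D2:**
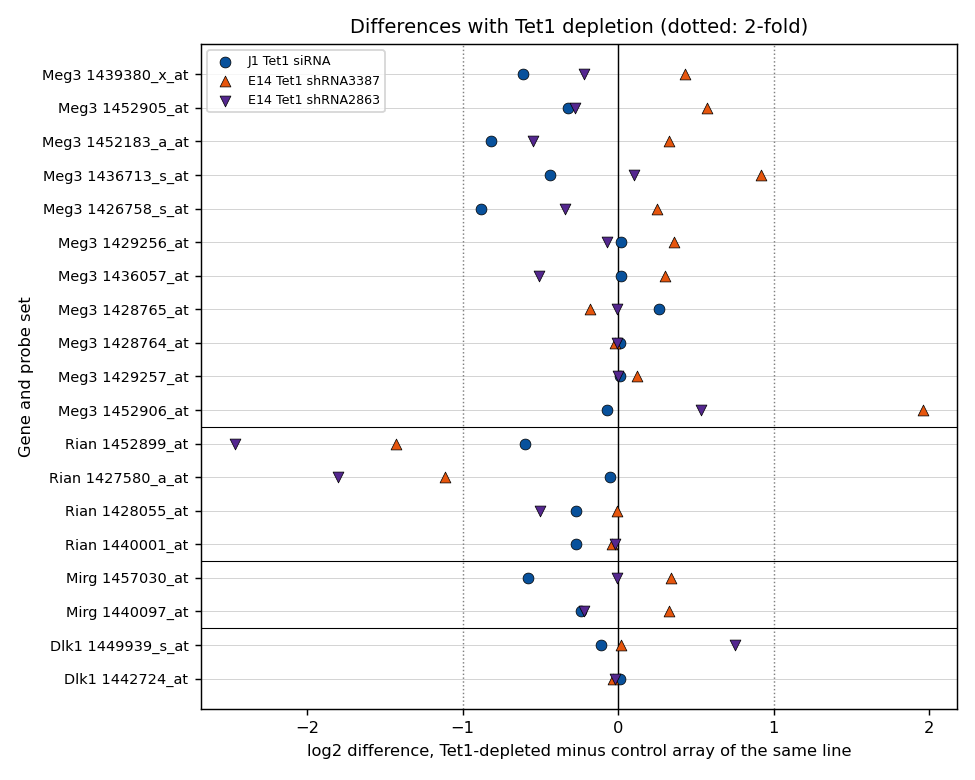
Log2 difference from the control array of the same system (x axis) for each probe set (y axis) with Tet1 siRNA in J1 (circles) and with each Tet1 hairpin in E14 (triangles); dotted lines mark 2-fold. The bright Meg3 probe sets lie left of 0 with siRNA and right of 0 with shRNA3387, and Rian 1452899_at reaches -2.46 with shRNA2863.

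Set beside all probe sets tested, the cluster's counts past a fold threshold were as follows. In J1, 0 of the 18 kept members were at least 2-fold lower with Tet1 siRNA (1.04% of all kept probe sets) and 0 at least 2-fold higher (1.92%). None was at least 1.5-fold higher (5.94%), while 4 were at least 1.5-fold lower (5.61%), namely Meg3 1439380_x_at, 1452183_a_at and 1426758_s_at and Rian 1452899_at. Lower by any amount in J1 were 13 of 18 (44.8% of all) and higher 5 (51.2%). With shRNA3387, 2 were at least 2-fold lower (0.610%), both of Rian, and 1 at least 2-fold higher (2.18%), the dim Meg3 1452906_at. At 1.5-fold these counts were 2 lower (3.22%) and 2 higher (6.91%), the latter with Meg3 1436713_s_at added, and 6 were lower (58.9%) and 12 higher (39.9%) by any amount. With shRNA2863, 2 were at least 2-fold lower (0.555%), again those of Rian, and 0 at least 2-fold higher (1.0%). At 1.5-fold they were 2 lower (3.13%) and 1 higher (4.47%), the latter Dlk1, and 14 were lower (56.3%) and 3 higher (40.3%) by any amount. Below control in J1 and above scramble with shRNA3387, which share no control array, were 9 of 18 (20.3%): 6 of Meg3, both of Mirg and Dlk1. Among the 6, Meg3 1452906_at was under the filter on both J1 arrays, with a difference of -0.07, and was kept through the Tet1 hairpin arrays only. Dlk1 counted through a shRNA3387 difference of 0.02, which was -0.10 after quantile normalization. The member medians were -0.26, 0.28 and -0.15 in J1, under shRNA3387 and under shRNA2863, and those of all kept probe sets 0.01, -0.02 and -0.01. The shares by any amount depended on the scaling. After median centring, 18501 of all 29001 kept probe sets were lower in J1, against 12988 as deposited. Higher with shRNA3387 were 19128 against 11571, and lower with shRNA2863 were 9965 against 16335. Of the 11 Meg3 probe sets, those lower in J1 went from 6 to 10 and those lower with shRNA2863 from 8 to 6. The share of 20.3% was not recomputed. The comparison was repeated, with values as deposited, among the 10132 probe sets above 6 on every array. Of these, 57.9% were below control with J1 siRNA and 5.60% at least 1.5-fold, against 8 and 4 of the 8 members among them; the members' median was -0.59 and that of all -0.06. With shRNA3387, 2 of these 8 were below scramble (41.8% of all above 6), and with shRNA2863 7 of 8 (42.2%). At least 2-fold lower were the 2 of Rian with either hairpin (0.306% for shRNA3387 and 0.286% for shRNA2863).

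**Figure D3:**
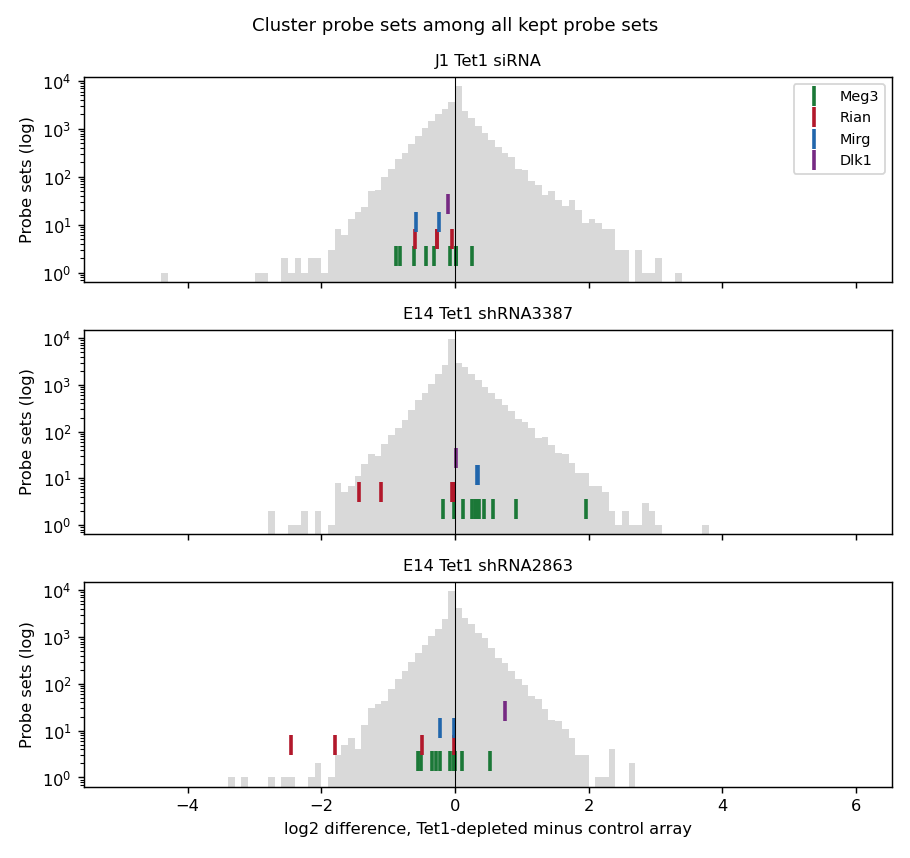
Histograms of the log2 differences of all 29001 kept probe sets (grey, log count axis) in each depletion, with the 18 kept members as ticks at arbitrary height, coloured by gene. With shRNA2863 the leftmost Rian ticks at -2.46 and -1.80 lie in the thin lower tail, and Dlk1 at 0.75 lies on the right.

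No member passed a test of the Tet1 effect. In the limma fit over both systems, with a system term and 2 residual degrees of freedom, 0 of 18 members and 0 of 29001 probe sets (0.00%) had an adjusted p under 0.05. An unadjusted p under 0.05 was reached by 0 members and by 1732 probe sets (5.97%). Rian 1452899_at differed by -1.37 ± 0.51 (SE; limma adjusted p = 0.754) and 1427580_a_at by -0.85 ± 0.45 (adjusted p = 0.754), over 3 depleted and 2 control arrays. The effect of both hairpins in E14 was -1.95 ± 0.62 (limma adjusted p = 0.476) for 1452899_at and -1.46 ± 0.42 (adjusted p = 0.451) for 1427580_a_at. That fit had 1 residual degree of freedom, from the hairpin pair, and called 0 probe sets (0.00%), with 0 members and 12.2% of all at an unadjusted p under 0.05. The effect in E14 minus that in J1 was -1.35 ± 0.95 for 1452899_at and -1.41 ± 0.64 for 1427580_a_at (limma adjusted p = 0.580 and 0.428), and for Meg3 1439380_x_at it was 0.72 ± 0.60 (adjusted p = 0.640). This test also called 0 probe sets (0.00%), with 0 members and 18.3% of all at an unadjusted p under 0.05, and no difference between systems in the Tet1 effect passed it.

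The differences of the maternally expressed RNAs were on average below that of paternally expressed Dlk1 in J1 siRNA and shRNA2863 cells, and their direction depended on the summary with shRNA3387. Taking each gene by its brightest probe set, the mean difference of Meg3, Rian and Mirg was -0.60 in J1, -0.22 with shRNA3387 and -0.90 with shRNA2863. Dlk1 differed by -0.11, 0.02 and 0.75. Maternal minus paternal was therefore -0.49, -0.24 and -1.65. In J1 it was -0.21 with the mean over each gene's kept probe sets, and with shRNA2863 it was -0.97 with the median over genes. With shRNA3387 this value was 0.32 with the median over genes and 0.029 with the mean over each gene's kept probe sets. That mean includes Meg3 1452906_at, at 1.96, which was kept through the 2 Tet1 hairpin arrays only, and the value without it was not computed. By the brightest probe sets, of the 3 maternal RNAs only Rian, at -1.43, was below Dlk1 with shRNA3387. The maternal RNAs had unequal differences in E14: Rian minus Meg3 was 0.01 in J1, -1.86 with shRNA3387 and -2.24 with shRNA2863, while Mirg minus Meg3 was 0.03, -0.09 and 0.21. The contrast rests on 1 paternal gene, and genes of 1 domain are not replicates, so no p is given.

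The hairpins could be set against each other without the shared scramble array. Signal was higher with shRNA3387 than with shRNA2863 on 14 of the 18 kept members (37.8% of all kept probe sets). It was so by at least 1.5-fold on 9 (3.90%), 7 of Meg3 and 2 of Rian, and by at least 2-fold on 2 (0.793%), 1 of each. The Meg3 probe set in the 2-fold count, also among the 7, was the dim 1452906_at, at 4.71 and 3.28. It was kept through these 2 hairpin arrays only. All 8 members above 6 on every array were higher with shRNA3387, by 0.35 to 1.03 with a median of 0.76, against 49.2% of the 10132 and a median of 0.00. The directions of these 8 members held after both scalings. Over all kept probe sets, median centring moved those higher with shRNA3387 from 3 to 4 for Rian and from 9 to 10 for Meg3. Dlk1 went the other way, with a difference of -0.73, as did Tet1 itself, with -0.82. The array with less Tet1 signal thus had more Meg3, Mirg and Rian signal and less Dlk1 signal. These are differences between 2 single arrays.

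**Figure D4:**
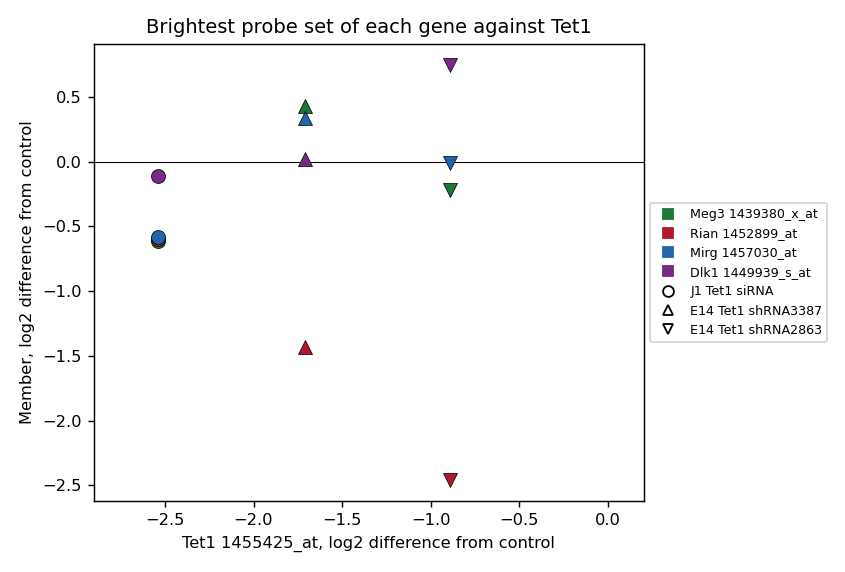
Log2 difference of the brightest probe set of Meg3, Rian, Mirg and Dlk1 (y axis) against that of Tet1 1455425_at (x axis) in the 3 depletions (marker shapes). At the J1 siRNA value of Tet1, -2.54, the points of Meg3, Rian and Mirg overlap near -0.60, whereas Rian is lowest, at -2.46, where Tet1 differed least, at -0.89.

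Between the systems, 1 member differed past the threshold. Meg3 1452905_at read 8.08 and 7.76 on the J1 arrays and 10.07, 10.64 and 9.79 on the E14 arrays, and the groups did not overlap. E14 minus J1 in the fit with a Tet1 term was 2.26 ± 0.33 (SE, 3 against 2 arrays; limma adjusted p = 0.0339). Of all kept probe sets 14.7% were called, 5.37% higher and 9.32% lower in E14, against 1 and 0 of the 18 members, and at an unadjusted p under 0.05 it was 31.4% (13.7% higher and 17.7% lower) against 6 members, 2 higher and 4 lower. The members' shares lay near that background. Between the control arrays alone, 1 member was at least 2-fold higher in E14 (3.37%), again Meg3 1452905_at, and 0 at least 2-fold lower (7.47%). The call was lost when any 1 array was left out, with adjusted p from 0.0896 to 0.199 and differences of 1.99 to 2.46. The other 4 bright Meg3 probe sets had system differences of 0.12 to 0.39, so the size of 2.26 was seen on 1 of the 5. Between the control arrays alone these 4 were lower in E14, by differences of -0.32 to -0.02, so their direction depended on the depleted arrays. After quantile normalization 3 of the 5 bright ones were lower in the E14 control array. Mirg 1457030_at was higher in E14 by 1.34 ± 0.25 (limma adjusted p = 0.0519), and 1440097_at differed by -0.62 ± 0.22 (adjusted p = 0.174), with the groups not overlapping in either direction. The 4 Rian probe sets differed by -1.32 to -0.47, with limma adjusted p of 0.0625 to 0.316. In the control arrays alone they differed by -0.61 to -0.17. In all, 5 members had the 3 E14 arrays below both J1 arrays (22.4% of all kept probe sets) and 5 above them (27.3%). Of those above, Meg3 1452906_at was kept through 2 E14 arrays only and lay under the filter in J1, at 2.68 and 2.61. Meg3 1429257_at separated narrowly, at 4.01 or more in E14 against 3.99 and 4.00 in J1. So did Dlk1 1449939_s_at, at 4.99 or more against 4.97 and 4.86, with E14 minus J1 of 0.30 ± 0.29 (limma adjusted p = 0.538).

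**Figure D5:**
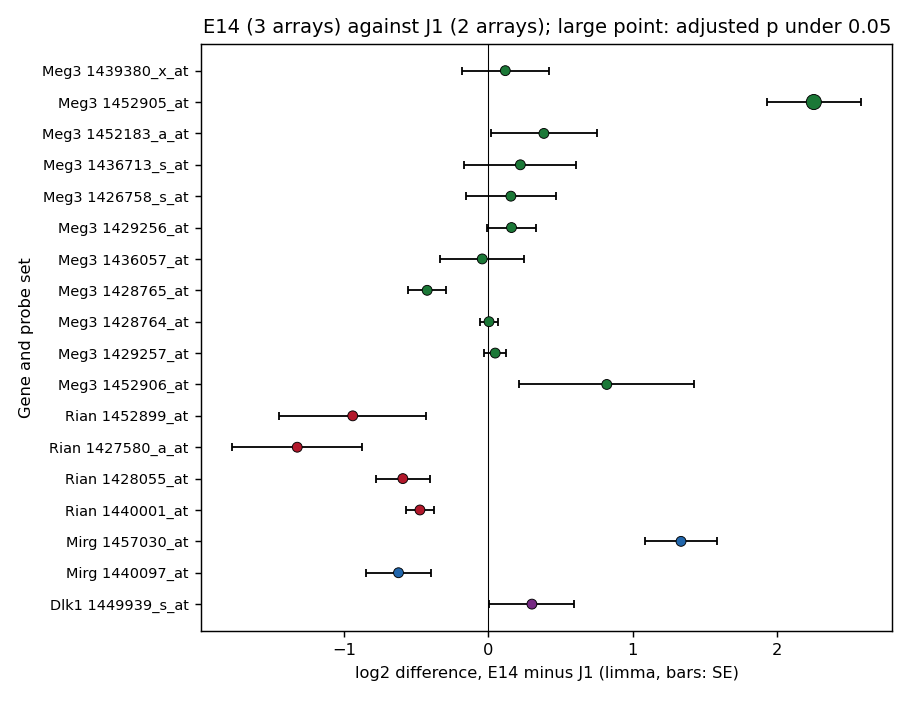
E14 minus J1 log2 difference with its SE (x axis, limma fit of 5 arrays with a Tet1 term) for the 18 kept probe sets (y axis). Meg3 1452905_at at 2.26 is the only point past an adjusted p of 0.05, and the 4 Rian points lie below 0.

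Fibroblasts of the feeder layer are known to express Meg3 and Dlk1, so their markers were read on the same arrays. Of 25 markers 24 had a probe set and 20 were kept; Postn, Dcn, Pdgfra and Cdh11 were under the filter on all arrays. The log2 of their summed signal was 10.78 on both J1 arrays, and 10.97, 10.43 and 11.04 with scramble, shRNA3387 and shRNA2863. The collagen gene Col1a2 read 6.24 and 5.95 in J1 against 3.59 to 3.62 in E14, while Sfrp1, a secreted Wnt inhibitor, read 5.01 and 4.98 against 5.90 to 6.55 and Col1a1 read 4.39 and 3.89 against 3.30 to 4.61. Over the 20 kept markers, 6 were lower in the E14 than in the J1 control array, and the median difference was 0.04. The summed signal was lowest on the shRNA3387 array, where smooth muscle actin Acta2 read 7.16 against 8.83 with shRNA2863. The part of feeder or mesenchymal RNA in the cluster's values was not tested.

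Genes on either side of the domain had list medians nearer to those of all genes. Of 11 flanking genes with a probe set 9 were kept, with median differences of -0.06 in J1, 0.13 under shRNA3387 and -0.01 under shRNA2863, beside -0.01, -0.02 and -0.01 for all 13619 genes by their brightest probe set. At least 1.5-fold lower in J1 was 1 of 9 (6.09% of genes), the actin regulator Evl, which differed by -1.11, 0.42 and -0.19, and at least 1.5-fold higher with shRNA3387 was 1 (5.39%), Wdr25 at 0.75. The phosphatase subunit Ppp2r5c differed by -0.17, -0.31 and -0.58, and the carrier Slc25a29 by 0.00, -0.32 and -0.45. The limma tests of Tet1 called 0 of these 9 genes, and the system test called 1 (13.2% of genes), the chaperone Hsp90aa1.

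Factors that set or keep imprints had a lower list median with Tet1 siRNA in J1 than with the hairpins. Of 26 kept, 7 were at least 1.5-fold lower in J1 (6.09% of genes), with a list median of -0.33, and 1 with each hairpin, Tet1 itself (3.36% of genes for shRNA3387 and 3.26% for shRNA2863), with list medians of 0.10 and 0.07. At least 1.5-fold higher were 0 in J1 (2.91%), 2 with shRNA3387 (5.39%) and 3 with shRNA2863 (3.63%). The list holds Tet1, the gene that was depleted. The dioxygenase Tet2 differed by -1.13, -0.19 and -0.17. Aff3, a protein that binds the control region of this domain, differed by -0.34, 0.87 and 1.0, and the chromatin protein Smchd1 by 0.24, 0.76 and 0.59. Zfp57 differed by -0.01, -0.18 and -0.17, and the maintenance methyltransferase Dnmt1 by -0.08, 0.05 and 0.10. Limma called 0 of the 26 for Tet1 in either fit.

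Other imprinted genes were compared between the systems in the same way. Of 28 kept, 10 were at least 2-fold lower in the E14 than in the J1 control array (4.84% of genes), and the system test in limma called 9 of 28 (13.2% of genes). Igf2, a paternally expressed growth factor, read 9.21 and 9.63 in J1 and 7.22, 5.93 and 6.71 in E14. With Tet1 depletion the antisense RNA Kcnq1ot1 differed by -0.61 in J1, 1.84 with shRNA3387 and 1.57 with shRNA2863, the zinc finger gene Peg3 by -0.21, -0.95 and -0.80, and the G protein gene Gnas by 0.51, 0.54 and 0.41. Past 1.5-fold in J1, 3 of the 28 were lower (6.09%) and 3 higher (2.91%). Under shRNA3387 5 were lower (3.36%) and 1 higher (5.39%), and under shRNA2863 3 were lower (3.26%) and 3 higher (3.63%). Past 2-fold, the lower ones were 0 of 28 in J1 (1.10% of genes) and 1 with each hairpin (0.653% and 0.609%). Whether the cluster differs from these genes was not tested.

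Probe sets of other genes with the profile most like each member were sought among 24000 kept probe sets with 1 symbol, by the root mean square difference of the 5 values centred on their mean. For Meg3 1439380_x_at the nearest were Wiz (0.039), Fam210b (0.076) and Flywch1 (0.077), which read 6.11, 5.53, 5.84, 6.17 and 5.60 in the case of Wiz. For Rian 1452899_at the nearest were Ing3 (0.172), Lmna (0.374) and Golph3l (0.408), and Ing3 read 6.73, 6.33, 6.96, 5.08 and 4.4. The distances for Rian were larger than those for the other members. This measure is not scaled by the size of a profile. Rian 1452899_at ranged over 2.63 on the 5 arrays, against 0.75 for Meg3 1439380_x_at, 1.83 for Mirg 1457030_at and 0.88 for Dlk1 1449939_s_at. For Mirg 1457030_at they were Eif1ax (0.062), Spin1 (0.075) and Pnisr (0.077), and for Dlk1 1449939_s_at Cntln (0.021), Gpr183 (0.036) and 4930542D17Rik (0.037). Likeness over 5 arrays is a description of these arrays.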

How the data were processed

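The authors deposited log2 probe set values of 5 Affymetrix arrays; biotin-labelled cRNA was made with a one-cycle kit, per the labels' protocols. The log2 scale was inferred from the range (1.38 to 14.12); how probe sets were summarised and normalized is not given in the sources used here. Values were used as deposited. Genes were named from the platform annotation (34958 of 45101 probe sets with 1 symbol, 932 with several, 9211 with none), whose build is not given; sequences are from RefSeq tables of GRCm38.p6, where 5 of the 6 members matched a promoter. All probe sets not array controls and above the 40th percentile on at least 1 array were fitted with limma (version 3.58.1, R 4.3.3), with a prior trend on the mean level. Tests were two-sided, p-values were adjusted by Benjamini and Hochberg's method over the 29001 probe sets, and the threshold was 0.05. One fit had system and Tet1 terms (2 residual degrees of freedom). The other had 4 means (1 residual degree of freedom, from the hairpin arrays), and assumes that each lone array varies as those do. The fits were run on simulated arrays with planted effects and independent noise of 1 fixed size. That checks the code and does not show how often the fits find effects in data like these. Nothing says that the arrays came from separate cultures, so the p-values reflect nothing but how these arrays spread, and their number limits the precision. Beyond the members, named genes were up to 4 per list with the largest mean difference and the 3 nearest profiles per member; Fgf4, Hsp90aa1, Notch1, Notch2, Hes5, Sfrp1, Col1a2, Postn, Dcn, Pdgfra and Cdh11, Dnmt1, Zfp57 and Dio3os were named after their values were seen. The members and lists were chosen with earlier results of these data known. As alternatives, values were quantile normalized or centred on array medians, the filter was dropped or raised to the 60th percentile, each gene was given 1 probe set, the trend or the system term was dropped, the fold threshold was 1.5, genes were summarised otherwise, and each array was left out.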

Additional observations from a re-analysis of the deposited data

How the results depend on the processing

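The counts of 0 members called for the Tet1 effect over both systems, for the hairpin effect and for its difference between systems were also 0 in every alternative that could be fitted. The last 2 could not be fitted without either hairpin array, which leaves no residual degree of freedom, or without the scramble array, and the difference between systems could not be fitted without either J1 array. The count of members called between systems was 1, and 2 after quantile normalization or with the 60th percentile filter, where Mirg 1457030_at was added (limma adjusted p = 0.0329 and 0.0242); leaving out 1 array gave 0 to 0. With 1 probe set per gene the 1 call was Mirg 1457030_at (adjusted p = 0.0470), since Meg3 was then represented by 1439380_x_at. Over all probe sets, 4260 were called between systems, 1930 with 1 probe set per gene, and 0 to 1925 when 1 array was left out. In J1, 4 members passed 1.5-fold and 0 passed 2-fold. Maternal minus paternal with shRNA3387 reversed from -0.24 to 0.32 with the median over genes. With the mean over probe sets it was 0.029, which includes Meg3 1452906_at, kept through the 2 Tet1 hairpin arrays only and at 1.96 there with shRNA3387. The J1 value moved from -0.49 to -0.21 with the mean over probe sets, and the shRNA2863 value from -1.65 to -0.97 with the median over genes. The scalings moved the median of all differences by no more than 0.06. Counts by any amount moved far more: 19128 of 29001 probe sets were higher with shRNA3387 after median centring, against 11571 as deposited. No paired analysis was possible because each group holds 1 array and the labels give no replicate numbers. Signal near background limits 1452906_at of Meg3, and low signal limits Dlk1.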

Other observations

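Dlk1 is related to the Notch ligands, and genes of that pathway were read on the same arrays. Of 13 kept Notch ligands, receptors and targets, 3 were at least 1.5-fold lower with Tet1 siRNA in J1 cells (6.09% of genes), 1 with shRNA3387 (3.36%) and 2 with shRNA2863 (3.26%). The receptor Notch4 read 4.77 and 2.76 on the J1 arrays, the latter under the filter, and 5.64, 5.21 and 4.85 with scramble, shRNA3387 and shRNA2863. The ligand Jag1 read 5.82 and 5.60 in J1 and 7.55, 6.79 and 6.54 in E14. The ligand Dll1 differed by -0.69, 0.11 and -0.45 from its controls, and Dll3 by -0.56, -0.09 and -0.22. The limma tests of Tet1 called 0 of these genes, and the test between systems called 4 of 13 (13.2% of genes): Notch1, Notch2, Jag1 and the target Hes5.

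Dio3 inactivates thyroid hormone, and 4 partners in that system were kept. The receptor Thra differed by 0.27 in J1, 0.58 with shRNA3387 and 0.03 with shRNA2863, the activating deiodinase Dio2 by 0.18, -0.55 and -0.31, and the receptor Thrb by 0.00, 0.62 and -0.01. The transporter Slc16a10 differed by -0.28, 0.01 and -0.06.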
